A study of Mus musculus with 12 samples.

Results

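A group of 9 genes best known from the liver, the stomach or the squamous foregut was followed in tumours of the mouse line 344SQ: Ambp, Alb, Afp, Hp, Tm4sf4, Cym, Hnf4a, Ttr and Tmprss11e. They are 9 of the 18193 genes named by a probe set of their own on the array, and 19 of its 34945 single-gene probe sets carry them. The 9 were selected on their measured levels: earlier results of these data had shown them as liver or gut genes that differ between resistant and parental tumours. Differences between the lines are therefore given below as a description, with no test. Differences between antibodies within a line were tested, but they rest on the same arrays as the line differences, so these tests are not independent of the choice. All 9 genes and all 19 probe sets passed the filter on dim signals, a level above 3.32 on at least 3 arrays. Of the 18193 genes, 15493 passed it and entered the tests.

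The line 344SQ is a mouse lung adenocarcinoma line. Parental cells or cells of an anti-PD-1 resistant derivative were injected under the skin of the flank of female 129sv/ev mice, 5 mice in each of 4 groups. Each group received control IgG or an antibody against PD-1, an inhibitory receptor of T cells, at 10 mg/kg on days 4 and 7, and tumours were taken on day 11. The groups were therefore parental with IgG, parental with anti-PD-1, resistant with IgG and resistant with anti-PD-1, and 3 arrays were analysed here from each. The sources used here do not say whether the resistant cells are 1 clone, or which mice lie behind an array, so p-values measure only the spread between arrays. Levels are the authors' normalized log2 signals, and a difference of 1 is 2-fold.

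Most of these genes belong to the liver or the digestive tract. Hepatocytes secrete albumin (Alb), transthyretin (Ttr), haptoglobin (Hp) and the alpha-1-microglobulin and bikunin precursor (Ambp), while the fetal liver and yolk sac make alpha-fetoprotein (Afp). Albumin and alpha-fetoprotein are relatives encoded side by side. HNF4A is the nuclear receptor that, with HNF1 and FOXA factors, maintains transcription of many such genes in liver and gut epithelium. Normal lung epithelium relies on NKX2-1 in its place, and mouse lung tumours that lose NKX2-1 are known to take on stomach and gut genes.

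On the array, Nkx2-1 was near the filter in all groups, with means between 3.88 and 4.05, while the most intense Hnf4a probe set stood between 9.22 and 10.38 on every array. The tissue label of lung adenocarcinoma was thus met by little signal for this lung factor. Surfactant genes were measured too: Sftpd had a mean of 6.12 ± 0.18 (SD, n = 3) in parental IgG tumours and 4.39 in resistant IgG tumours. In the same groups Sftpb had means of 7.76 and 6.09, Sftpc 4.36 and 4.66, and Sftpa1 3.26 and 3.56. The dimmer Sftpc and Sftpa1 were thus not lower in resistant tumours. The arrays read whole tumours, so the cells that carry a transcript were not identified, and in bulk tissue fewer cells of a type and less RNA per cell cannot be told apart.

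Because several of these genes are classical targets of HNF1, FOXA and HNF4 factors, 300 bases of promoter (250 before and 50 after the start, RefSeq, build GRCm38.p6) are printed 5′ to 3′ for members that differed with the line or followed one another, and for Hnf4a. Promoters of 6 of the 9 members were searched, 7 promoters in all. None was searched for Hp, Ttr and Tmprss11e, so nothing is said here of motifs in those genes. Capitals mark matches on either strand. The letters GTTAAT stand for an HNF1 core site. A variant of the FOXA motif was searched as TGTTTGC. The core of the TATA box was searched as TATAAA. No matches overlapped. The letters of these motifs were chosen with the promoters in view.
Alb, chr5:90460620-90460919, plus strand: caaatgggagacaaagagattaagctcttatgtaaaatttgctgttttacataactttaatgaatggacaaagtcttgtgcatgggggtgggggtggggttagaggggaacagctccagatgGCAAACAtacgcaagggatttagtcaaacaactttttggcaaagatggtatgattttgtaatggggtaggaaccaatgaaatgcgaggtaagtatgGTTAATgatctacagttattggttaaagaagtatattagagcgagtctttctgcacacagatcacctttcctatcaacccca
Afp, chr5:90490464-90490763, plus strand: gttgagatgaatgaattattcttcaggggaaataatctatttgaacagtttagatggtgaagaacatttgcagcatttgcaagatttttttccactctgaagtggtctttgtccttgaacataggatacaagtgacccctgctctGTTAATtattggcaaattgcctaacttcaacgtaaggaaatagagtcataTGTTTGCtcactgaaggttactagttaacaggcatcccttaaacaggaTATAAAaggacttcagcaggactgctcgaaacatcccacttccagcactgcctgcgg
Ambp, chr4:63154123-63154422, minus strand: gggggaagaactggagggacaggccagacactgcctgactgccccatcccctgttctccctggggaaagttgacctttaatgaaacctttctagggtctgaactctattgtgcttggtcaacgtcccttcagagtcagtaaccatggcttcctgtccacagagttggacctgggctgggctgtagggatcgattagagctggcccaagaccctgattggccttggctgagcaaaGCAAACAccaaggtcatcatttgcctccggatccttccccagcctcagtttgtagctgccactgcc
Tm4sf4, chr3:57425160-57425459, plus strand: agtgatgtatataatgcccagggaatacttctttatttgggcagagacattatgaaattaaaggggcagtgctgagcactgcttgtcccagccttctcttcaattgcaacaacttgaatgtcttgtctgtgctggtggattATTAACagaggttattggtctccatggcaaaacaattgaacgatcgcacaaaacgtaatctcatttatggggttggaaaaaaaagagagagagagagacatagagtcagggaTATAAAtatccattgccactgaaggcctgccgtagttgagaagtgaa
Cym, chr3:107221683-107221982, minus strand: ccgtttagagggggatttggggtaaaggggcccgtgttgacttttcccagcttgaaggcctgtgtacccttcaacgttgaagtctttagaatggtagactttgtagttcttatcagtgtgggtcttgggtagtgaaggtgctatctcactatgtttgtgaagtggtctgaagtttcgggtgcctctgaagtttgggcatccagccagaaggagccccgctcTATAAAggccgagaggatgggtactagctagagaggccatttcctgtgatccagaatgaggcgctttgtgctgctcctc
Hnf4a, second promoter, chr2:163546905-163547204, plus strand: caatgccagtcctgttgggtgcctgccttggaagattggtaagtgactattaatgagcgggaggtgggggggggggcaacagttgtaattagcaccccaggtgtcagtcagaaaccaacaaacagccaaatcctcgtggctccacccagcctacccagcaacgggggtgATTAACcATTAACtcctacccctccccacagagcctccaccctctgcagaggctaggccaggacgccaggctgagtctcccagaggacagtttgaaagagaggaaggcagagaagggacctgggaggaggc

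The HNF1 core site lay at bases -32 to -27 from the start in Alb, at -105 to -100 in Afp and at -109 to -104 in Tm4sf4. The second Hnf4a promoter held it at -81 to -76 and again at -74 to -69. The first Hnf4a promoter was searched but is not printed, and it held no match to any of the motifs. Of all 32841 promoters of this length, 7.1% held it. The FOXA variant was found in Ambp, Alb and Afp and in 5.07% of all promoters. The letters TATAAA were found at -29 to -24 in Cym, at -7 to -2 in Afp and at 3 to 8, after the start, in Tm4sf4. They were held by 13.6% of all promoters. None of the 7 promoters held CAAAGTCC (an HNF4 element, 1.42% of all promoters) or TGTTTAC (the FOXA core, 3.65%), nor the longer direct repeat bound by HNF4A (0.0396%). These are matches of letters and not measured binding. Alb and Afp, chromosomal neighbours that share the HNF1 core site and the FOXA variant, differed between the lines in opposite directions: mean Alb was higher and mean Afp lower in resistant tumours.

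**Figure D1:**
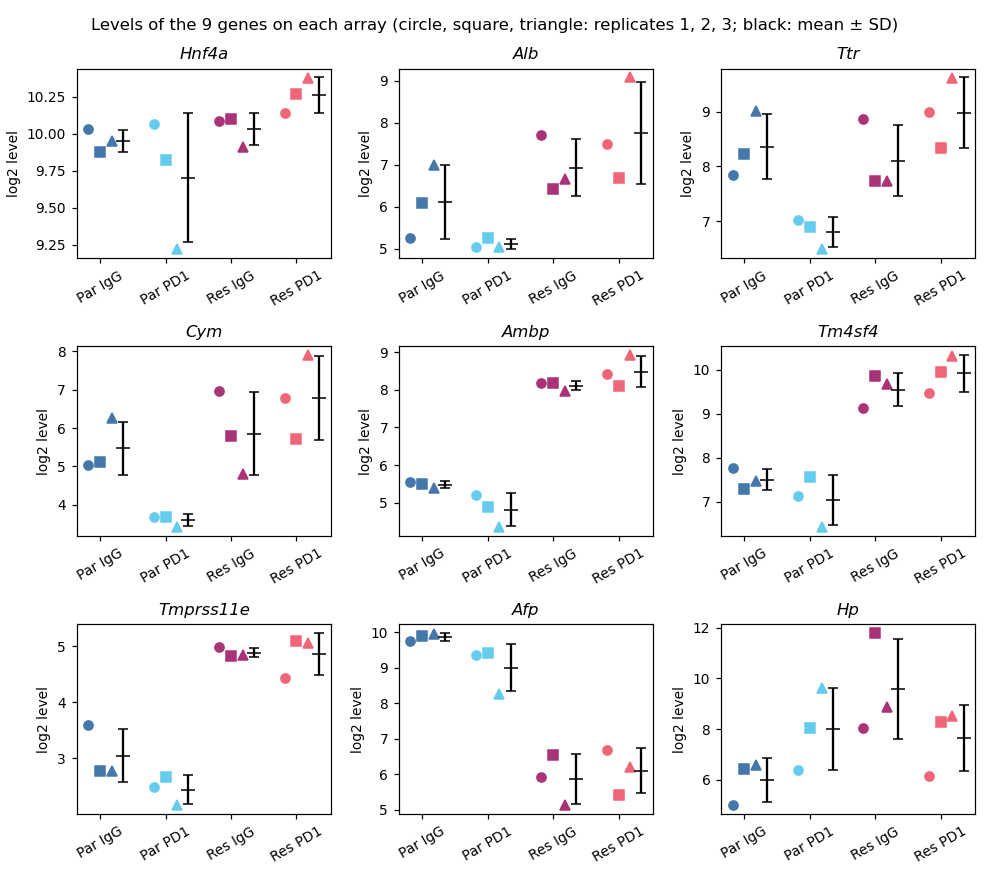
Level of each of the 9 genes (vertical axis, authors' log2 signal) on each of the 12 arrays, with coloured symbols for replicates and black bars for group mean ± SD, in the 4 groups of parental or resistant tumours given IgG or anti-PD-1. The resistant arrays lie above every parental array for Ambp, Tm4sf4 and Tmprss11e and below every parental array for Afp.

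Hnf4a, the transcription factor of the group, had a high signal everywhere and moved least. Its most intense probe set read 10.03, 9.88 and 9.95 in parental IgG tumours, 10.07, 9.82 and 9.22 in parental anti-PD-1 tumours, 10.09, 10.10 and 9.91 in resistant IgG tumours, and 10.14, 10.27 and 10.38 in resistant anti-PD-1 tumours. Only the third parental anti-PD-1 array was apart from the rest, at the low end. The group means were 9.95 ± 0.08, 9.70 ± 0.44, 10.03 ± 0.11 and 10.26 ± 0.12 (SD, n = 3), and only the resistant anti-PD-1 arrays lay above all others. The lines differed by 0.08 under IgG and by 0.56 under anti-PD-1. The other 3 probe sets of Hnf4a were dimmer, with group means from 5.43 to 8.51. Their line differences ran from 0.02 to 0.36 under IgG and from 0.60 to 0.80 under anti-PD-1. For the dimmest, at 0.35, the lines did not overlap under IgG.

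Ambp, Tm4sf4 and Tmprss11e were higher on every resistant array than on any parental array. Ambp read 5.56, 5.49 and 5.39 in parental IgG tumours, 5.21, 4.89 and 4.35 in parental anti-PD-1 tumours, 8.18, 8.17 and 7.97 in resistant IgG tumours, and 8.43, 8.09 and 8.92 in resistant anti-PD-1 tumours. The 6 parental arrays ended at 5.56 and the 6 resistant arrays began at 7.97, with no value between. The lines differed by 2.63 under IgG, or 6.19-fold, and by 3.66 under anti-PD-1, or 12.6-fold. Bikunin, one of the proteins cut from the Ambp precursor, is a protease inhibitor that is carried on heavy chains in the matrix and in blood.

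Tm4sf4 encodes a 4-pass membrane protein of liver, gut and pancreas. It read 7.76, 7.28 and 7.47 in parental IgG tumours, 7.13, 7.55 and 6.42 in parental anti-PD-1 tumours, 9.12, 9.85 and 9.68 in resistant IgG tumours, and 9.48, 9.96 and 10.31 in resistant anti-PD-1 tumours. Within each line the IgG and anti-PD-1 arrays overlapped. Between the lines the gap ran from 7.76 to 9.12, and the means differed by 2.05 (4.14-fold) under IgG and 2.88 (7.36-fold) under anti-PD-1.

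Tmprss11e encodes a transmembrane serine protease of squamous epithelia, also called DESC1. Its signal was low: 3.59, 2.76 and 2.77 in parental IgG tumours, 2.48, 2.67 and 2.16 in parental anti-PD-1 tumours, 4.98, 4.83 and 4.84 in resistant IgG tumours, and 4.43, 5.09 and 5.06 in resistant anti-PD-1 tumours. All 6 resistant arrays were above the filter and 5 of the 6 parental arrays were below it. The differences of 1.84 under IgG and 2.42 under anti-PD-1 may therefore be lower limits. The filter is the lower quartile of all signals and not a measured limit of detection.

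Afp ran the other way. Its most intense probe set read 9.76, 9.90 and 9.97 in parental IgG tumours, 9.36, 9.41 and 8.25 in parental anti-PD-1 tumours, 5.93, 6.54 and 5.13 in resistant IgG tumours, and 6.67, 5.41 and 6.21 in resistant anti-PD-1 tumours. Every resistant array was lower than every parental array, by 4.01 between means under IgG (16.1-fold) and by 2.91 under anti-PD-1 (7.52-fold). Of the other 4 Afp probe sets, the brighter pair had differences of -3.15 and -2.94 under IgG. The dimmer pair stayed between 3.19 and 4.26 on all arrays and carried little of the pattern. Averaging all 5 probe sets brought the IgG difference to -2.09 and the anti-PD-1 difference to -1.33.

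Over all 12 arrays, the lines did not overlap for 4 of the 9 genes, 3 higher and 1 lower in resistant tumours, against 17.8% of all genes tested (11.2% higher and 6.65% lower). Within IgG tumours 5 of 9 did not overlap (38.8% of all genes), and within anti-PD-1 tumours 8 of 9 did not (45.7% of all genes). Since the 9 were chosen for such differences, nothing is read from these counts. The limma test called 16.2% of all genes between the lines under IgG (8.93% higher and 7.31% lower in resistant tumours) and 33.5% under anti-PD-1 (21.6% and 11.9%). The balance of 3′ and 5′ control signals differed with the line as well. The Gapdh 3′ minus 5′ control signal was 0.14 to 0.38 on parental arrays and -0.03 to 0.09 on resistant arrays. The part of this balance in the line differences was not tested.

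For Alb, Ttr and Cym the parental anti-PD-1 tumours had the lowest mean, as they also had for Ambp, Tm4sf4, Tmprss11e and Hnf4a. Alb read 5.25, 6.09 and 6.99 in parental IgG tumours, 5.04, 5.25 and 5.04 in parental anti-PD-1 tumours, 7.71, 6.43 and 6.65 in resistant IgG tumours, and 7.50, 6.68 and 9.08 in resistant anti-PD-1 tumours. The first parental IgG array was as low as the parental anti-PD-1 arrays, and the third resistant anti-PD-1 array was the highest of the 12. The group means of 6.11 ± 0.87, 5.11 ± 0.12, 6.93 ± 0.68 and 7.75 ± 1.22 (SD, n = 3) put the resistant anti-PD-1 group first, but it overlapped with the resistant IgG group, as that did with parental IgG. The lines differed by 0.82 under IgG and by 2.64, or 6.23-fold, under anti-PD-1. The IgG difference was 1.26 without the third parental IgG array, and the anti-PD-1 difference 1.98 without the third resistant anti-PD-1 array.

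Ttr encodes the carrier of thyroxine and of the retinol-binding protein. Its most intense probe set read 7.85, 8.22 and 9.02 in parental IgG tumours, 7.02, 6.90 and 6.49 in parental anti-PD-1 tumours, 8.86, 7.73 and 7.73 in resistant IgG tumours, and 9.0, 8.33 and 9.62 in resistant anti-PD-1 tumours. The 3 parental anti-PD-1 arrays were below the other 9, which overlapped. The lines differed by -0.26 under IgG and by 2.18, or 4.53-fold, under anti-PD-1, and the IgG difference became 0.07 without the third parental IgG array.

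Cym encodes chymosin, the milk-clotting protease of the stomach of young mammals. It read 5.05, 5.11 and 6.27 in parental IgG tumours, 3.68, 3.69 and 3.42 in parental anti-PD-1 tumours, 6.96, 5.79 and 4.80 in resistant IgG tumours, and 6.77, 5.71 and 7.90 in resistant anti-PD-1 tumours. As with Ttr, the parental anti-PD-1 arrays were the lowest 3 and came near the filter, while the other groups overlapped. The lines differed by 0.37 under IgG and by 3.20, or 9.19-fold, under anti-PD-1, and the IgG difference became -0.18 without the first resistant IgG array.

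These 3 genes also followed one another from array to array. In parental IgG tumours the third array was the highest for all 3, in resistant IgG tumours the first, and in resistant anti-PD-1 tumours the third. In parental anti-PD-1 tumours Alb and Cym were highest on replicate 2 and Ttr on replicate 1. With each gene centred on its own mean, Alb and Cym differed by 0.39 per array on average, Alb and Ttr by 0.42 and Cym and Ttr by 0.46. Among the genes that separate the lines, Tm4sf4 and Tmprss11e differed by 0.29 and Ambp and Tm4sf4 by 0.36. These distances describe 12 arrays that share tumours and a normalization, and carry no test.

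**Figure D2:**
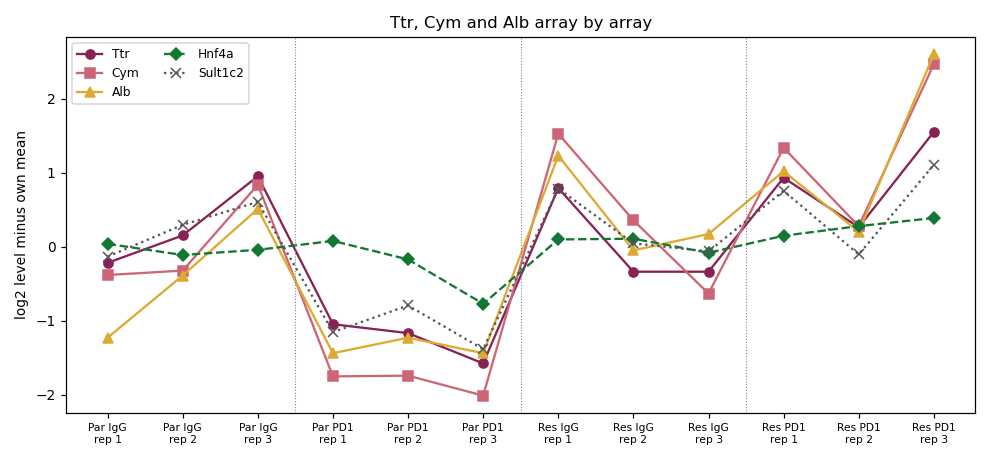
Levels of Ttr, Cym and Alb, with Hnf4a and the sulfotransferase gene Sult1c2 beside them, on the 12 arrays, each gene centred on its mean over all arrays (vertical axis, log2), with arrays by group along the horizontal axis. The curves of Ttr, Cym and Alb lie low together on the 3 parental anti-PD-1 arrays and peak together on the third resistant anti-PD-1 array.

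Hp, whose product binds free haemoglobin, varied most within groups. It read 5.01, 6.43 and 6.58 in parental IgG tumours, 6.39, 8.04 and 9.61 in parental anti-PD-1 tumours, 8.03, 11.79 and 8.89 in resistant IgG tumours, and 6.15, 8.27 and 8.51 in resistant anti-PD-1 tumours. The second resistant IgG array was far above the rest. Ranges within a group reached 3.76, against a largest group range of 2.40 for Alb. The lines differed by 3.56 (11.8-fold) under IgG, with no overlap, and by -0.37 under anti-PD-1, with overlap. Without the second resistant IgG array the IgG difference was 2.45, and without the first parental IgG and the third parental anti-PD-1 arrays the anti-PD-1 difference was 0.43.

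Hp is also made by adipocytes and neutrophils. Among tested genes that are not members, with predicted genes and clones left out, Adipoq, the adipocyte hormone adiponectin, was nearest to Hp. The mean distance was 0.27 per array, where Hp itself deviated by 1.41 from its mean. Fabp4, the fatty acid binding protein of adipocytes, came next at 0.59. Adipoq read 3.11, 4.88 and 4.70 in parental IgG tumours, 4.57, 6.31 and 7.38 in parental anti-PD-1 tumours, 6.53, 10.66 and 7.47 in resistant IgG tumours, and 4.06, 6.98 and 6.62 in resistant anti-PD-1 tumours. The second resistant IgG array was again the highest. Averaged over 14 adipocyte genes, levels were 5.33 to 6.23 in parental IgG, 6.03 to 7.03 in parental anti-PD-1, 6.42 to 8.30 in resistant IgG and 5.75 to 6.45 in resistant anti-PD-1 tumours. The 14 neutrophil genes had their highest mean, 6.72, on the third parental anti-PD-1 array, where Hp was 9.61. On the second resistant IgG array, where Hp was highest at 11.79, their mean was 5.47. The part of either cell type in the Hp signal was not tested.

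**Figure D3:**
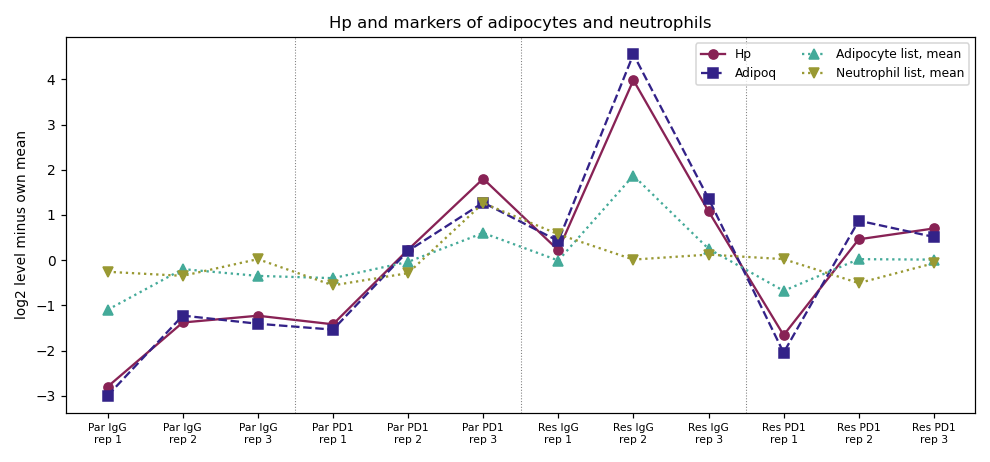
Levels of Hp and Adipoq and the means of 14 adipocyte and 14 neutrophil genes on each of the 12 arrays (horizontal axis), each centred on its own mean (vertical axis, log2). Hp and Adipoq run close together, from 5.01 and 3.11 before centring on the first parental IgG array to 11.79 and 10.66 on the second resistant IgG array.

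Anti-PD-1 was compared with IgG within each line over all 15493 genes by limma, with Benjamini-Hochberg adjustment. In parental tumours none of the 9 genes passed an adjusted p of 0.05, which 3.5% of all genes did. A lower mean under anti-PD-1 was seen in 8 of the 9, where 51.3% of all genes were lower, with a median difference of -0.66 against -0.01 for all genes. An unadjusted p under 0.05 was reached by 4, against 21.9% of all genes, and 5 did not overlap between antibodies, against 22.6%. These counts use arrays that also gave the line differences behind the choice of the 9, so nothing is read from them. With 3 arrays against 3, an exact permutation test of a single gene cannot go below p = 0.1.

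Ttr came nearest to the threshold in parental tumours, with a difference of -1.56 (SE 0.40, limma adjusted p = 0.0575). All 4 of its probe sets were lower under anti-PD-1. When each probe set was fitted as a row of its own, 1 of the 4 passed, at -1.70 (limma adjusted p = 0.0403), as did 3.07% of all probe sets. The others had limma adjusted p = 0.0528, 0.0559 and 0.107. When arrays were weighted by their reliability, the gene passed at -1.72 (limma adjusted p = 0.0434). Over all alternatives the adjusted p ran from 0.0434 to 0.173, so the call depends on the fit while the sign did not change in any.

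Cym differed by -1.88 (SE 0.59, limma adjusted p = 0.101) and Ambp by -0.66 (SE 0.22, limma adjusted p = 0.122), both without overlap between antibodies. Afp and Tmprss11e were lower without overlap too, by -0.87 and -0.60 between means (limma adjusted p = 0.242 and 0.173). Alb, Tm4sf4 and Hnf4a overlapped, with differences of -1.0, -0.47 and -0.25. Hp was the exception in sign, at 2.01 (SE 1.04, limma adjusted p = 0.289). Without the first parental IgG and the third parental anti-PD-1 arrays, which stand apart from their groups, the differences were smaller for 6 members: -0.39 for Ambp, -0.55 for Afp, -0.19 for Tmprss11e, -0.04 for Tm4sf4, 0.03 for Hnf4a and 0.71 for Hp. They were larger for Alb, Cym and Ttr, at -1.40, -2.00 and -1.66.

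In resistant tumours none of the 9 passed, and neither did any other gene (0.0% of all genes called, 738 genes or 4.8% at an unadjusted p under 0.05). A higher mean under anti-PD-1 was seen in 7 members and in 58.6% of all genes, with a median of 0.37 against 0.03 for all genes. As in parental tumours, nothing is read from this count. Ttr differed by 0.88 (SE 0.40, limma adjusted p = 0.896), Cym by 0.94, Alb by 0.82 and Hp by -1.93, all with overlapping arrays. Afp, at 0.23, and Tmprss11e, at -0.02, changed sign when single resistant arrays were left out. Of the 9, Hnf4a alone did not overlap, at a difference of 0.23, where 14.2% of all genes did not.

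The interaction, the antibody difference in resistant tumours minus that in parental tumours, is also the line difference under anti-PD-1 minus that under IgG. Since the 9 were chosen on the line differences, it is given with no test. It was 2.44 for Ttr, 2.82 for Cym, 1.82 for Alb, 1.04 for Ambp and -3.93 for Hp. The interaction was positive for 8 of the 9 and for 54.7% of all genes. Over all genes none passed limma's adjusted threshold for the interaction, and 2713 had an unadjusted p under 0.05.

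**Figure D4:**
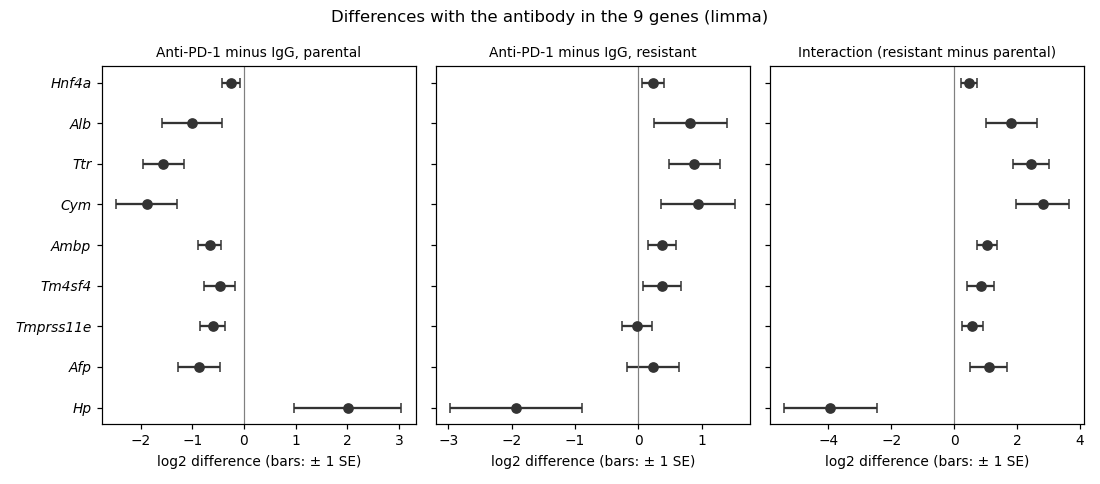
Anti-PD-1 minus IgG difference (horizontal axis, log2) of each of the 9 genes in parental tumours and in resistant tumours, and the interaction (resistant difference minus parental difference), with bars of 1 standard error. Parental differences are negative for 8 genes, Ttr at -1.56 and Cym at -1.88 among them, and Hp has the opposite sign in each line.

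Related genes were described from 17 lists of 349 entries, 269 of which could be tested, chosen with earlier results of these data known. Of 26 foregut and stomach genes, 22 were lower in parental tumours under anti-PD-1, where 51.3% of all genes were. The median over the 26 was -0.21, against -0.01 for all genes. Of the 26, 2 passed: the gastrokine Gkn2, which fell by 1.23 (limma adjusted p = 0.0363), and the sulfotransferase Sult1c2, which fell by 1.37 (limma adjusted p = 0.0451). Of 17 intestinal genes, 2 passed: the galectin Lgals4 fell by 0.65 and the chloride channel Cftr fell by 1.74 (limma adjusted p = 0.0309 and 0.0406). Of all genes 1.23% rose and 2.27% fell. None of 25 liver plasma proteins, 33 liver and gut transcription factors or 14 hepatocyte enzymes passed there. In the acute phase list 2 of 19 rose, Socs3 by 0.70 and Stat3 by 0.56 (limma adjusted p = 0.0314 and 0.0340), which act downstream of interleukin 6. Among 11 bikunin partners 2 rose, the hyaluronan synthase gene Has1 by 0.98 and Tnfaip6 by 1.03 (limma adjusted p = 0.0339 and 0.0340). The Tnfaip6 protein transfers heavy chains from bikunin complexes to hyaluronan. In the fetal liver and yolk sac list 1 of 15 rose, the growth factor gene Igf2, by 1.39 (limma adjusted p = 0.0358).

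No foregut, acute phase, fetal or bikunin partner gene passed without the 2 arrays that stand apart, and 1 intestinal gene did. Each of the 9 named list genes called in parental tumours lost its call when some single array was left out. Sult1c2 lost it whichever array was left out, and Gkn2, Lgals4, Socs3 and Igf2 kept it in 1 of 6 cases. Mean levels of 17 epithelial genes were 8.21 ± 0.38 in parental IgG and 8.01 ± 0.20 in parental anti-PD-1 tumours (SD, n = 3), and of 19 skeletal muscle genes 8.52 ± 1.95 and 9.72 ± 0.92. Their part in these differences was not tested.

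Between the lines under IgG, 5 of the 25 plasma protein genes passed, where 16.2% of all genes did. Kng1, the kininogen gene, was higher in resistant tumours by 1.13, with Serpinc1 and Apoc3 also higher. Serpinc1 lost its call whichever single array was left out, and Apoc3 kept it in 1 of 6 cases. After median centring 1 of the 25 was called higher. Apob, the apolipoprotein of VLDL and LDL, was lower by 1.57 under IgG (limma adjusted p = 0.00131), with F10, which kept its call in 2 of 6 cases. Over all lists, 17 of 43 named calls between the lines under IgG and 38 of 61 under anti-PD-1 were kept whichever array was left out. Under anti-PD-1 3 of the 25 plasma protein genes were higher and 2 lower, where 21.6% and 11.9% of all genes were. Apoa1 was among the higher, by 1.59 (limma adjusted p = 0.00712), and the lower were again Apob, by 1.65, and F10. Of 14 tested hepatocyte enzymes, 2 were higher under IgG, Uox by 0.60 (call kept in 2 of 6 cases) and Fbp1 by 0.50, and under anti-PD-1 Asl was higher by 0.52 and Arg1 lower by 0.76. Fbp1 and Arg1 lost their call whichever single array was left out. The other 13 of the 27 enzymes on the array were too dim to be tested, Cps1 with group means from 2.88 to 3.04, Otc from 2.06 to 2.39 and Cyp3a11 from 2.31 to 2.46 among them. Arg1, which macrophages also make, had group means from 10.31 to 11.07 and Asl from 7.17 to 7.70, and the mean of 27 enzymes was 3.91 to 4.34 on each array.

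Transcription factors of liver and gut differed between the lines in both directions. Under IgG 6 of 33 were higher in resistant tumours and 2 lower (8.93% and 7.31% of all genes). Under anti-PD-1 10 were higher and 5 lower (21.6% and 11.9% of all genes). Without the 2 arrays that stand apart, the IgG counts were 4 and 1. Sox2, a factor of the foregut and stomach, was higher by 1.78 and 1.91, from 2.21 ± 0.04 in parental IgG tumours to 3.99 in resistant IgG tumours. Both Sox2 values may be lower limits, because the parental means lie below the filter. Nr2f1 was higher by 1.34 and 1.81. Under anti-PD-1 the intestinal factor Cdx2 was higher by 0.75 and the pioneer factor Foxa1 by 0.83 (limma adjusted p = 0.00349 and 0.00387). Cebpb, a factor of the acute phase response, was lower by 0.96.

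Foregut and stomach genes split under IgG, 2 higher and 3 lower of 26, and were mostly higher in resistant tumours under anti-PD-1, 10 higher and 1 lower, where 21.6% of all genes were higher and 11.9% lower. The latter included Lgals2 by 2.18, the annexin Anxa10 by 1.05, Sult1c2 by 1.70 and the mucin Muc1 by 1.0. Among intestinal genes, Krt20 was higher by 1.21 under IgG and 1.70 under anti-PD-1, while Cftr was lower by 5.00 and 3.07. Both Cftr values may be lower limits, because its resistant means of 2.80 and 2.99 lie below the filter. Under IgG 5 of 17 lung lineage genes were lower and none higher, where 7.31% and 8.93% of all genes were. Sftpd, by 1.73, and Abca3, by 0.85, were among the 5. Under anti-PD-1 5 of the 17 were lower and 1 higher, where 11.9% and 21.6% of all genes were. Of 12 tested genes of squamous epithelium, Krt14 alone passed, higher by 1.64 under IgG (limma adjusted p = 0.0171, up to 0.0657 with single arrays left out). The relatives Tmprss11a, Tmprss11d, Tmprss11f and Tmprss11g of Tmprss11e were below the filter in every group and were not tested.

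Genes that partner or flank the members were mixed. Tm4sf1, a family member beside Tm4sf4, was higher in resistant tumours by 0.75 under IgG and 0.80 under anti-PD-1 (limma adjusted p = 0.00188 and 0.000539). Rbp2, a cellular retinol-binding protein, was higher by 0.73 and 1.35, and Rbp4, the plasma partner of transthyretin, by 0.48 under anti-PD-1. Among 7 aspartic proteases, the class of chymosin, Pgc was higher by 0.31 under IgG and Ctsd lower by 0.30 under anti-PD-1.

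For each member the 3 genes with the most similar centred levels over the 12 arrays were found among all genes tested. Smim31 was nearest to both Ambp, at a mean distance of 0.28, and Tm4sf4, at 0.31. Tmprss11e lay closest to Nrn1 at 0.22 and Klhl1 at 0.23. Afp was followed by the epithelial factor Ehf at 0.30, the cell cycle inhibitor Cdkn2b at 0.31 and the tight junction gene Ocln at 0.39. For Ttr they were Sult1c2 at 0.24, the glucuronosyltransferase Ugt2b34 at 0.27 and the glutathione transferase Gsta4 at 0.34. Outside the members, Alb was closest to Ugt2b34 at 0.40, Apoa1 at 0.42 and Tff2 at 0.45, and Cym to Bche at 0.58. Alb and Cym were nearer to each other, at 0.39, and Cym was nearer to Ttr, at 0.46, than to Bche. The small distances of Hnf4a, 0.06 to 0.07, belong to a gene that deviated by only 0.19. Of these neighbours in pattern, Sult1c2 passed the parental treatment test, but its call was lost whichever single parental array was left out.

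The genes next to the members on their chromosomes (build GRCm38.p6) were examined for line differences of their own. Alb, at chr5:90460870-90476602, and Afp, at chr5:90490714-90508907, lie side by side. Of the 9 nearest tested genes that are not members, 2 around Alb and 2 around Afp were called under IgG. Around Ambp (chr4:63143275-63154172) 2 of 10 were called under IgG, both lower, while Ambp was higher, and under anti-PD-1 3 were higher and 3 lower. Around Tm4sf4 (chr3:57425410-57441677) 1 of 10 was called under IgG and 3 under anti-PD-1, all higher. Around Tmprss11e (chr5:86705186-86745807) none of 10 was called under IgG and 6, all higher, under anti-PD-1, with a median of 0.44. Of all genes, 16.2% were called under IgG and 33.5% under anti-PD-1. Afm, next to Afp, differed by 0.12 under IgG and was not called.

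**Figure D5:**
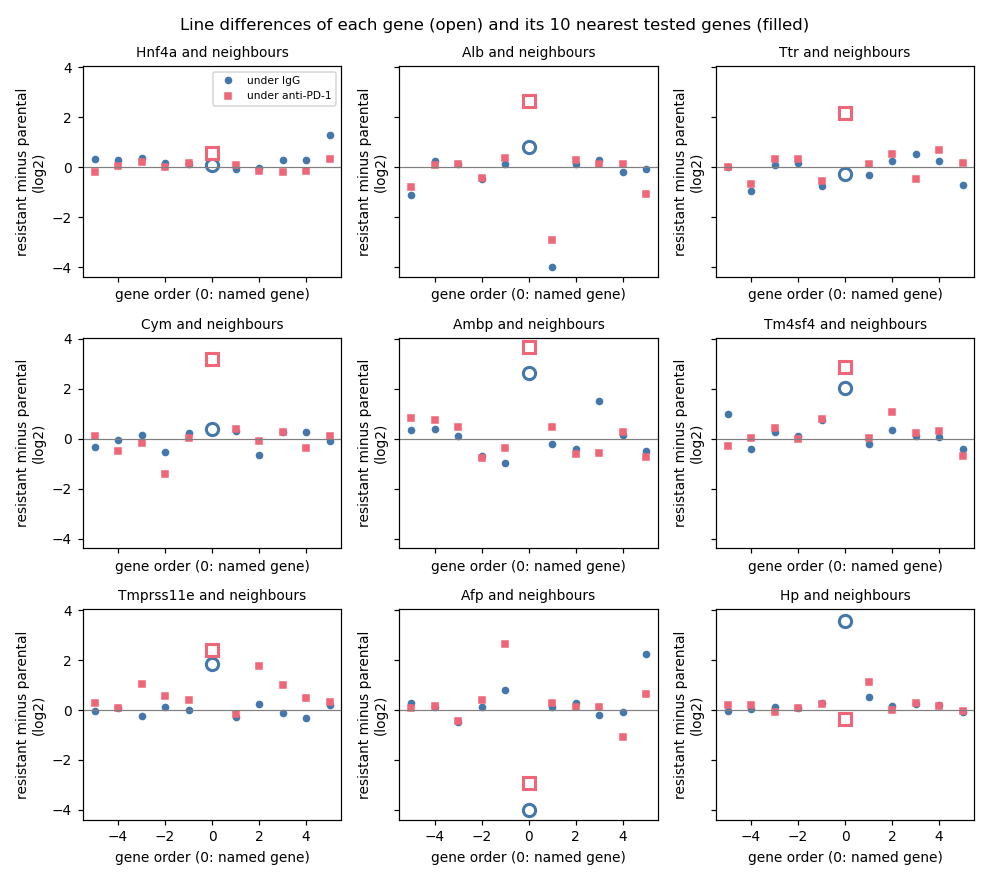
Resistant minus parental difference under IgG (circles) and under anti-PD-1 (squares) (vertical axes, log2) of each of the 9 genes (open) and its 10 nearest tested genes (filled), ordered along the chromosome (horizontal axis, place in that order). Afp stands apart at -4.01 beside Afm at 0.12 under IgG, while under IgG Hnf4a at 0.08 and Ttr at -0.26 lie among their neighbours. Cym, at 0.37 under IgG, lies just above its highest neighbour, at 0.29. Hnf4a, at 0.56 under anti-PD-1, lies above its highest, at 0.35.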

How the data were processed

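Total RNA from tumours was labelled with biotin and hybridized to Affymetrix GeneChip Mouse Genome 430 2.0 arrays, per the labels' protocols. The deposited values are the authors' normalized log2 signals for 45101 probe sets; the method of background correction and normalization is unstated in the sources used here. They were used unchanged. Of the probe sets, 34945 map to 1 gene. A gene's most intense probe set, averaged across the 12 arrays, stood for it, and genes above 3.32 (the lower quartile, percentile 25) on at least 3 arrays were tested. A single limma model (limma 3.58.1, R 4.3.3) with 4 group means was fitted over 15493 genes, with 8 residual degrees of freedom, Benjamini-Hochberg adjustment and a threshold of 0.05. Differences had a median standard error of 0.117. The fit was tested on simulated data. The number of arrays limits the precision.

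The 9 genes, the lists and the motif letters were chosen with earlier results of these data known. List genes are named from those called, within the 4 smallest p per direction, beside markers below the filter that were chosen after their values were seen. Also named are the 3 genes nearest each member by mean absolute difference of centred levels, and the 5 nearest tested genes on each side. Members, predicted genes and clones were left out of the search for the nearest 3. Names come from the platform annotation, updated through gene numbers; promoters and coordinates come from RefSeq (GRCm38.p6). Alternatives covered probe set averaging, 1 row per probe set, the filter, median centring, array weights, a replicate block, fitting only the compared groups, and leaving out arrays. On the second principal component (19.1% of variance), parental IgG replicate 1 scored 51.3 and parental anti-PD-1 replicate 3 scored -48.9, which sets both apart. Figures were drawn with matplotlib 3.10.9.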

Additional observations from a re-analysis of the deposited data

How the results depend on the processing

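Of 675 alternative values of the 9 genes, 671 counted as unchanged. For antibody differences and the interaction this means the same side of the threshold, and for line differences a move smaller than the replicate spread. A change of sign alone was not counted. Hnf4a in parental tumours, for example, went from -0.25 to 0.03 without the 2 arrays that stand apart. Ttr in parental tumours passed with array weights, at -1.72 (limma adjusted p = 0.0434). Averaging probe sets moved 3 line differences, to -2.09 and -1.33 for Afp and 0.20 for Hnf4a under IgG. Counts over all genes were less stable. For anti-PD-1 in parental tumours, 542 called genes became 879 with 1 row per probe set, 918 with array weights, 100 without the 2 arrays that stand apart and 0 when only the compared groups were fitted. Leaving out single arrays gave 9 (without parental IgG replicate 3) to 711, with 11, 57 and 165 without parental IgG replicate 2, parental anti-PD-1 replicate 3 and parental IgG replicate 1. For resistant tumours the count of 0 became 1 with array weights and 0 to 1 with an array left out (1 without resistant IgG replicate 2). The interaction count of 0 became 2 with 1 row per probe set, 3 with the replicate block, 121 with array weights and 0 to 78 with an array left out (78 without parental anti-PD-1 replicate 1). Between the lines, 2517 under IgG became 4871 with 1 row per probe set, 5152 with array weights and 1273 to 2269 with an array left out (1273, 1472, 1542 and 1569 without resistant IgG replicates 2 and 1 and parental IgG replicates 2 and 3). Under anti-PD-1, 5186 became 9870 with 1 row per probe set and 3826 to 5043 with an array left out. Array weights moved the higher genes from 1384 of 2517 to 3212 of 5152 under IgG. Of 1275 list counts, 1088 stayed within 1.5 times and 187 moved. The causes were not tested. Replicate numbers share only a number: 14 of 18 same-number pairs correlated above 0.1 (r from -0.21 to 0.64), and 8 of 12 arrays were closest to their own number. With the replicate block the counts were 725 and 0 for anti-PD-1 in parental and resistant tumours, and 2858 and 5601 between the lines under IgG and anti-PD-1. Signal close to the filter limits Tmprss11e in parental tumours and Cym in parental anti-PD-1 tumours.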
